A study of Mus musculus with 6 samples.

Results

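The keratin genes and the genes of cornified envelope precursors were followed at 2 tumor sites of Renca, a cell line derived from a kidney carcinoma of a BALB/c mouse. The members were all genes whose symbol is Krt followed by digits alone, all Sprr genes, and Lor, Ivl, Flg and Flg2, taken where the platform annotation paired a transcript cluster with that 1 symbol. This gave 64 of the 19938 genes tested, of which 48 were keratins, 13 were Sprr genes and 3 were Lor, Ivl and Flg2. Each of the 64 had a single transcript cluster. RefSeq symbols that fit the same rule numbered 71, and the other 7 (Krt81, Krt83, Flg, Sprr2a1, Sprr2a2, Sprr2a3 and Sprr2c-ps) were not analysed here as genes of their own. Krt6a, Krt6b, Krt33a and Krt33b fall outside the rule by the letter in their symbols and are given only beside the members.

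The intrakidney group held tumors of 3 BALB/c mice that had received Renca cells in the kidney's outer cortex. The subcutaneous group held tumors of another 3 BALB/c mice that had received the same cells under the skin. Both groups were excised on day 12, and the total RNA of each whole tumor was hybridised to its own array (Affymetrix Mouse Gene 1.0 ST). Age and sex of the mice were not given in the labels used here. All tumors came from 1 transplanted line, and a tumor sample holds host cells beside the injected ones, so fewer cells of a type and less RNA per cell cannot be told apart. Values are log2 RMA values as deposited, with array medians between 7.08 and 7.11. The values of different transcript clusters depend on their probes and are not compared as amounts, and 3 arrays a group limit what can be resolved. Of 8 genes of the renal epithelial lineage 7 were measured, and 0 had an unadjusted p under 0.05 with limma. Pax8, a nephric transcription factor, averaged 10.13 ± 0.049 in intrakidney and 10.08 ± 0.063 in subcutaneous tumors. The kidney cadherin gene Cdh16 averaged 11.64 ± 0.17 in intrakidney and 11.55 ± 0.047 in subcutaneous tumors. Pax2 averaged 7.79 ± 0.13 in intrakidney and 7.73 ± 0.066 in subcutaneous tumors. Cdh6, the first of this list by p, averaged lower in intrakidney tumors, with 6.27 ± 0.31 against 6.44 ± 0.034 (mean ± SD, n = 3 each). Its values lay below 7.48, the median over all genes. The groups of each of these named genes overlapped.

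Keratins are the intermediate filament proteins of epithelial cells, and each filament is built from pairs of an acidic type I and a basic type II chain. Simple, single-layered epithelia such as kidney tubules use mainly the pair of Krt8 and Krt18, often with Krt7, Krt19 or Krt20. Stratified epithelia such as epidermis use Krt5 and Krt14 in the basal layer, switch to Krt1 and Krt10 above it, and turn on Krt16 and Krt17 after injury. Hair follicles have further sets in the inner root sheath and in the shaft. In the outermost epidermis, transglutaminases crosslink loricrin, involucrin and small proline-rich (Sprr) proteins under the cell membrane into the cornified envelope. Sprr1a and Sprr2 genes are also known to be turned on in stressed or injured cells that never cornify.

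Between intrakidney and subcutaneous tumors, the main simple keratins Krt8 and Krt18 lay within the spread of the arrays, and the largest difference among the members was in an Sprr gene. Sprr1b fell 1.74-fold in intrakidney tumors and was the only member past an adjusted p of 0.05 over all genes (limma, adjusted p = 0.0416). Sprr2g and Sprr1a lay lower, and Krt17 and Krt20 lay higher, in all intrakidney tumors than in all subcutaneous tumors, without passing. So did 4 keratins of the hair follicle's inner root sheath, all lower. The members that passed made up 1 of 64, where 0.231% of all genes tested passed. Groups that did not overlap were found in 9 of 64 members (14.1%), 7 lower and 2 higher, close to the 14.9% of all genes, of which 6.53% were lower and 8.41% higher. An unadjusted p under 0.05 was reached by the same number of members, 9 of 64, against 8.43% of all genes. The median log2 fold change, intrakidney minus subcutaneous throughout, was -0.04 over the members and -0.01 over all genes, and 51 members (79.7%) differed by less than 0.2, as did 87.6% of all genes.

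**Figure D1:**
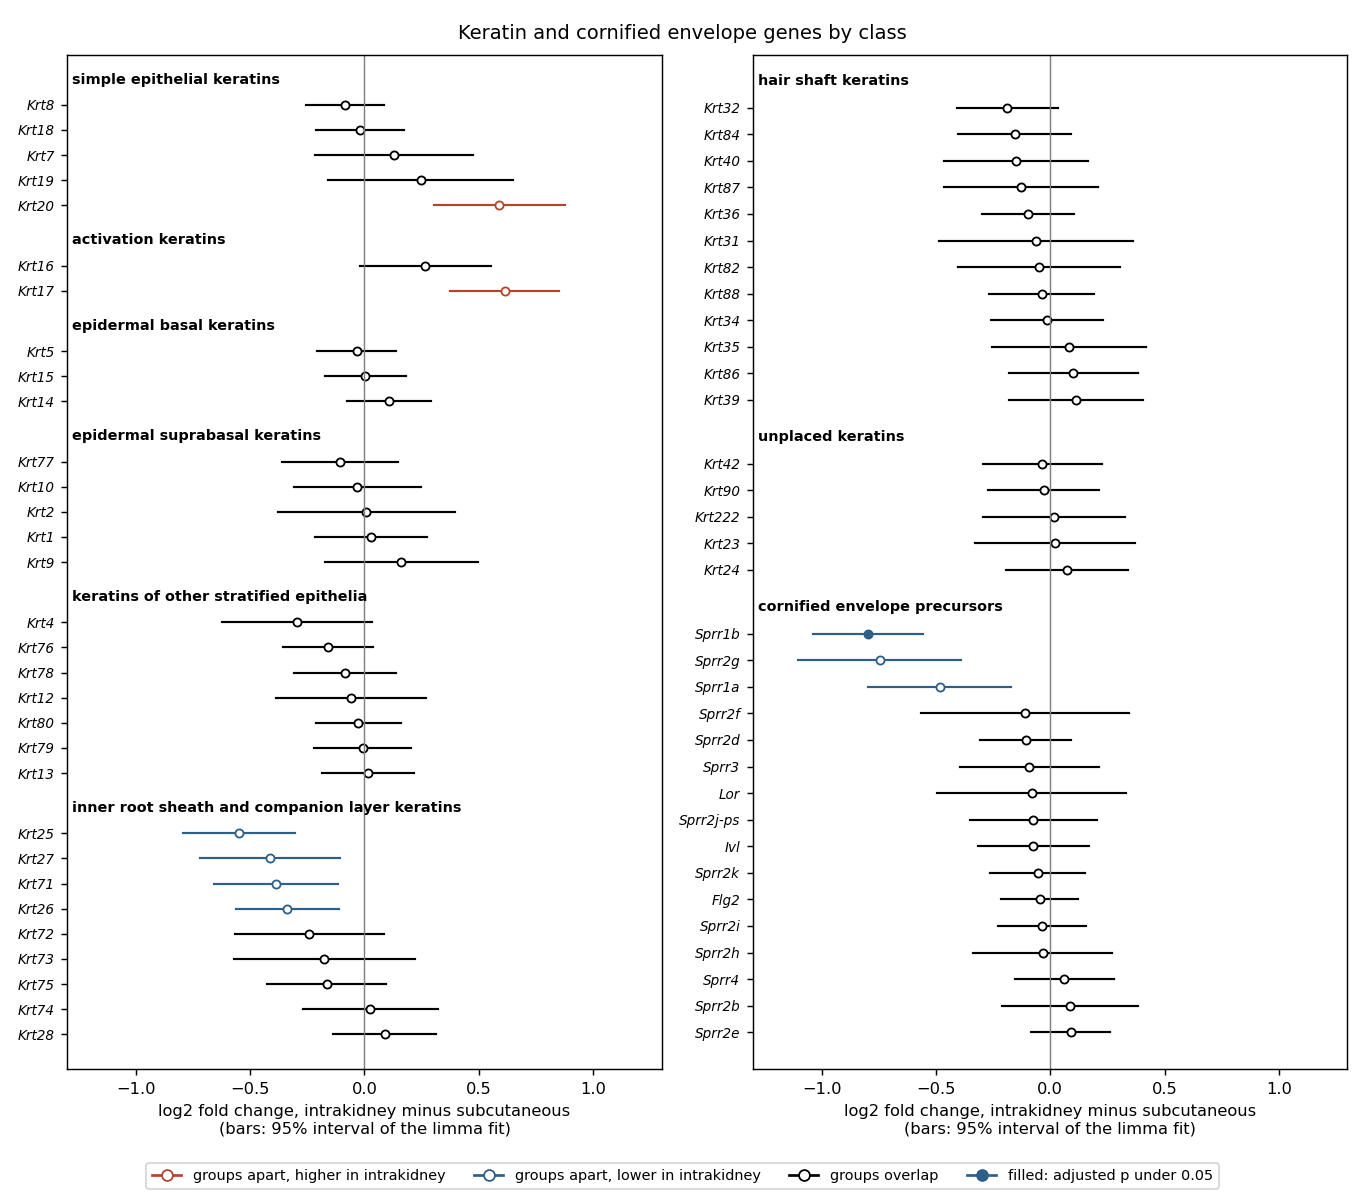
Log2 fold change of each of the 64 members (x axis, intrakidney minus subcutaneous) with its 95% interval from the limma fit, grouped by class. Colour marks members whose groups do not overlap, and the single filled point is Sprr1b at -0.80, the member past the threshold.

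Krt8 and Krt18, the partner chains of simple epithelium, had groups that overlapped. Krt8 (transcript cluster 10432918) measured 13.22, 13.20 and 13.16 in intrakidney tumors 1, 2 and 3, against 13.18, 13.29 and 13.35 in subcutaneous tumors 1, 2 and 3. Krt18 (transcript cluster 10427075) measured 12.08, 12.14 and 12.15 in intrakidney tumors, against 12.00, 12.23 and 12.19 in subcutaneous tumors. For neither gene did the site order the arrays: subcutaneous tumor 1 was the lowest or next to lowest, and the highest array was subcutaneous too. Krt8 differed by -0.09 ± 0.074 on the log2 scale (SE), with a 95% interval from -0.26 to 0.09. Krt18 differed by -0.02 ± 0.083, with an interval from -0.21 to 0.17. In folds, these intervals run from 0.837 to 1.06 for Krt8 and from 0.862 to 1.13 for Krt18. With 3 arrays a group, differences inside these intervals remain compatible with the values.

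The genes of this pair are neighbours on mouse chromosome 15, Krt8 on the minus strand and Krt18 on the plus strand. Their promoters, 250 bases before to 50 after the RefSeq start, are shown as those of the main simple pair, for comparison with the Sprr promoters further on. They lie at chr15:102004293-102004592 for Krt8 and chr15:102027966-102028265 for Krt18 (RefSeq, GRCm38.p6) and are written 5′ to 3′ on the gene's strand. Capitals mark each match to TGANTCA or to the TATA motif TATAAA, searched on both strands. TGANTCA is a loose pattern, with any base in the middle, that includes the letters bound by AP-1 factors.

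Krt8: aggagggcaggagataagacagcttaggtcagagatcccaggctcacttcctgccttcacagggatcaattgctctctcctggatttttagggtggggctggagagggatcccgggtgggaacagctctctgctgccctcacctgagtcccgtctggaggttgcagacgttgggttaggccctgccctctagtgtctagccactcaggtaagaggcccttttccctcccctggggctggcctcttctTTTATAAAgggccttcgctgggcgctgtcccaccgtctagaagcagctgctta

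Krt18: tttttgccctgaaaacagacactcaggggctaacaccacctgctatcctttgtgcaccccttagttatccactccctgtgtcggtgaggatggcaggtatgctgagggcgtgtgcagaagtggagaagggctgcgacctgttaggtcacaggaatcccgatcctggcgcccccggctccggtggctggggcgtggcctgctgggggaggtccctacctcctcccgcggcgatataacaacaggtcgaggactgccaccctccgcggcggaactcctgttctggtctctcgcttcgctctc

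The Krt8 window held the TATA letters on both strands in 1 overlapping run, and the Krt18 window held neither motif. TATAAA was found in 13.6% of the 32851 promoters of the same length in the table, and in 18 of the 35 keratins that had a promoter there. TGANTCA was found in 7.81% of all promoters and in 1 of these 35 keratins, Krt13, a keratin of internal stratified epithelia. Keratins were counted per gene, by a match in any of its promoters, and the background per promoter.

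The other simple keratins varied more. Krt20, a keratin of urothelium and intestine, measured 7.02, 6.72 and 7.08 in intrakidney tumors, against 6.17, 6.39 and 6.49 in subcutaneous tumors. Every intrakidney array lay above every subcutaneous array, by 1.51-fold on average. The log2 difference was 0.59 ± 0.12 (SE), which did not pass over all genes (limma, adjusted p = 0.182).

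Krt19, a type I keratin of ducts and mesothelium, measured 6.19, 6.47 and 6.91 in intrakidney tumors, against 6.18, 6.21 and 6.44 in subcutaneous tumors. Krt7, a type II keratin of ducts, measured 6.65, 7.23 and 7.15 in intrakidney tumors, against 6.80, 6.95 and 6.89 in subcutaneous tumors. For both genes the groups overlapped, since intrakidney tumor 1 lay among or below the subcutaneous arrays while intrakidney tumors 2 and 3 lay above all or nearly all of them. The log2 difference was 0.25 ± 0.17 (SE) for Krt19 and 0.13 ± 0.15 for Krt7, with limma adjusted p = 0.791 and 0.899. Single arrays moved both values: leaving out 1 array at a time gave 0.05 (without intrakidney tumor 3) to 0.41 (without intrakidney tumor 1) for Krt19. For Krt7 it gave 0.02 (without intrakidney tumor 2) to 0.31 (without intrakidney tumor 1), with 0.06 without intrakidney tumor 3. Array weights gave 0.52 for Krt19 and 0.20 for Krt7, and neither gene passed in any of these fits.

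The same arrays differed in kidney genes. The mean over 12 proximal tubule genes, all measured, was 6.15, 6.57 and 6.90 in intrakidney tumors 1, 2 and 3, against 6.27 to 6.45 in subcutaneous tumors. The mean over 6 of 7 loop and distal tubule genes was 6.15, 6.64 and 7.11 in intrakidney tumors, against 6.11 to 6.44 in subcutaneous tumors. Collecting duct genes, whose cells carry Krt7 and Krt19 as well as Krt8 and Krt18, had list means of 6.24 to 6.54 in intrakidney and 6.37 to 6.53 in subcutaneous tumors over 10 genes. Intrakidney tumor 3 was thus the highest array for both tubule lists and for Krt19, and it was the highest for Krt20 too (7.08). Krt7 (7.23) and the collecting duct list (6.54) were instead highest on intrakidney tumor 2. The part of host kidney in the Krt7 and Krt19 values was not tested. None of the measured genes of these 3 lists passed with limma (3 of the proximal tubule genes, 2 higher and 1 lower, had an unadjusted p under 0.05). The lower gene was Aqp1, the first of its list by p. It averaged 8.13 ± 0.40 in intrakidney and 9.17 ± 0.11 in subcutaneous tumors (mean ± SD), with groups that did not overlap (log2 difference -1.04, adjusted p = 0.114 with limma). The higher genes were Slc13a3 at 0.20, with groups that did not overlap, and Slc5a12 at 0.88, with groups that overlapped.

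Urothelial and mesothelial genes stand beside Krt20 and Krt19. Of 6 urothelial genes, 0 passed in either direction with limma, and 1 had an unadjusted p under 0.05. That gene was Upk1b, a tetraspanin of the urothelial plaque, with 6.93 ± 0.042 in intrakidney and 6.14 ± 0.21 in subcutaneous tumors (mean ± SD of 3 tumors each, adjusted p = 0.0533 with limma). Upk3b and Psca, the next genes by p, differed by 0.14 and 0.13, with overlapping groups. Upk2, the gene of another plaque protein, averaged 7.30 in intrakidney and 7.36 in subcutaneous tumors, and its groups overlapped. The list means over the 6 genes were 6.59 to 6.82 in intrakidney and 6.44 to 6.70 in subcutaneous tumors. Over 8 mesothelial genes the means were 6.53 to 6.77 in intrakidney and 6.41 to 6.54 in subcutaneous tumors, with 0 genes past the threshold and 2 at an unadjusted p under 0.05, both higher. Whether these cells contributed to the keratin values was not tested.

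**Figure D2:**
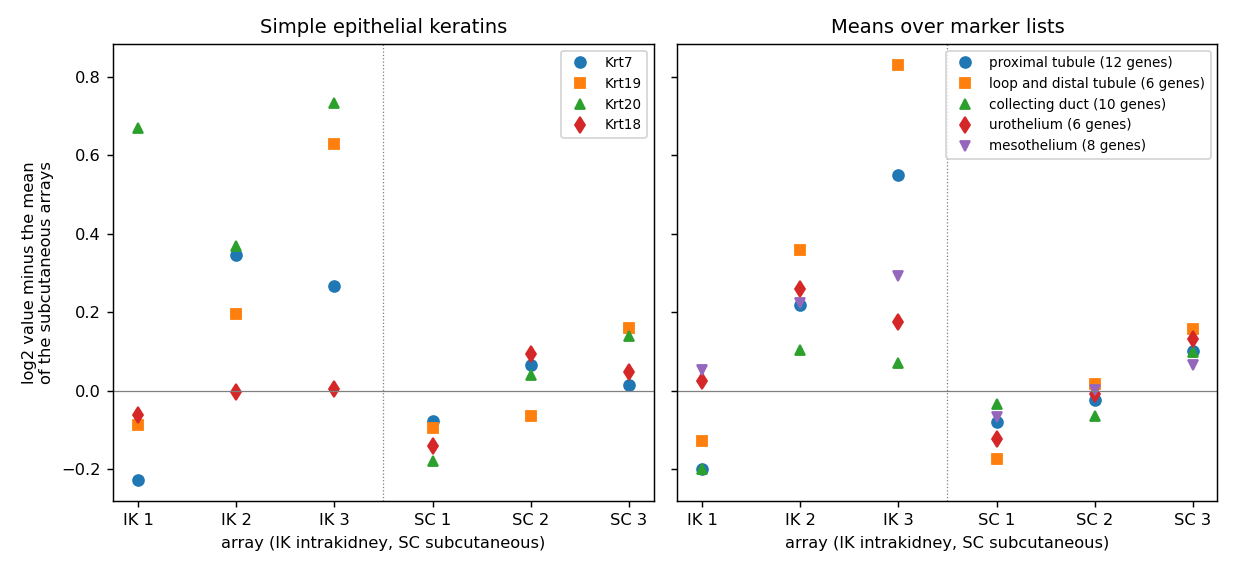
Values of Krt7, Krt19, Krt20 and Krt18 (left) and means over marker lists (right) on each array, as log2 value minus the mean of the 3 subcutaneous arrays. Krt19, Krt20 and both tubule lists are highest on intrakidney tumor 3, and Krt7 and the collecting duct list on intrakidney tumor 2. Krt20 is above the subcutaneous arrays on all 3 intrakidney arrays.

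Among the keratins of stratified epithelium, Krt17 had the largest difference. Krt17, a type I keratin induced in wounded epidermis and active in follicles and many carcinomas, measured 9.11, 8.87 and 9.04 in intrakidney tumors, against 8.27, 8.56 and 8.35 in subcutaneous tumors. The groups did not overlap, and the intrakidney mean was 1.53-fold higher. The log2 difference of 0.61 ± 0.10 (SE) missed the threshold over all genes (limma, adjusted p = 0.0947). It passed in the fits without dim genes (adjusted p = 0.0390), with an intensity trend and robust prior (adjusted p = 0.0192) and with array weights (adjusted p = 0.0266). These were 3 of 16 alternative fits. In the others it did not pass, with an adjusted p of 0.327 when every cluster was tested and 0.118 to 0.373 when single arrays were left out.

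Krt16, the other type I keratin of wounded epidermis, measured 4.90, 4.98 and 5.29 in intrakidney tumors, against 4.95, 4.67 and 4.76 in subcutaneous tumors, with overlapping groups (log2 difference 0.27, adjusted p = 0.633 with limma). The type II partners Krt6a and Krt6b differed by 0.06 and 0.0004 (adjusted p = 0.965 and 0.999 with limma). Of these wound-induced keratins, Krt17 alone had groups that did not overlap.

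Keratins that mark the layers of normal epidermis overlapped between the sites. The basal keratins Krt5, Krt14 and Krt15 differed by -0.03, 0.11 and 0.004 on the log2 scale. The 5 suprabasal keratins ran from -0.11 (Krt77) to 0.16 (Krt9, of palms and soles), with the main suprabasal pair Krt1 and Krt10 at 0.03 and -0.03. In both classes 0 of the members passed with limma, 0 had an unadjusted p under 0.05, and all 8 groups overlapped. Krt14 measured 6.57 to 6.72 in intrakidney and 6.49 to 6.64 in subcutaneous tumors. All 8 had mean values below 7.48, the median over all genes, and RMA compresses differences of dim clusters.

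Of 7 keratins of other stratified epithelia, the groups of all 7 overlapped, and Krt80 alone lay above the median value of all genes. Krt80, a type II keratin that appears in differentiating epithelial cells, measured 9.72, 9.63 and 9.81 in intrakidney tumors, against 9.71, 9.83 and 9.70 in subcutaneous tumors (log2 difference -0.03, 95% interval -0.21 to 0.16). The rest ran from -0.29 (Krt4, of oesophagus and tongue) to 0.02 (Krt13, its type I partner). Neither partner passed, with adjusted p = 0.655 and 0.984 with limma.

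Epidermal genes other than keratins were measured beside the epidermal keratins. Of 16 such genes 15 were measured, 0 passed with limma and 0 had an unadjusted p under 0.05. Their mean per array was 5.99 to 6.18 in intrakidney and 6.0 to 6.32 in subcutaneous tumors. Perp, a desmosomal membrane protein gene, averaged 6.10 ± 0.095 in intrakidney and 5.87 ± 0.19 in subcutaneous tumors, and its groups overlapped. Trp63, the transcription factor of basal keratinocytes, averaged 6.55 ± 0.14 in intrakidney and 6.72 ± 0.17 in subcutaneous tumors (mean ± SD, n = 3 each). The part of host skin in the values of subcutaneous tumors was not tested beyond these lists.

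**Figure D3:**
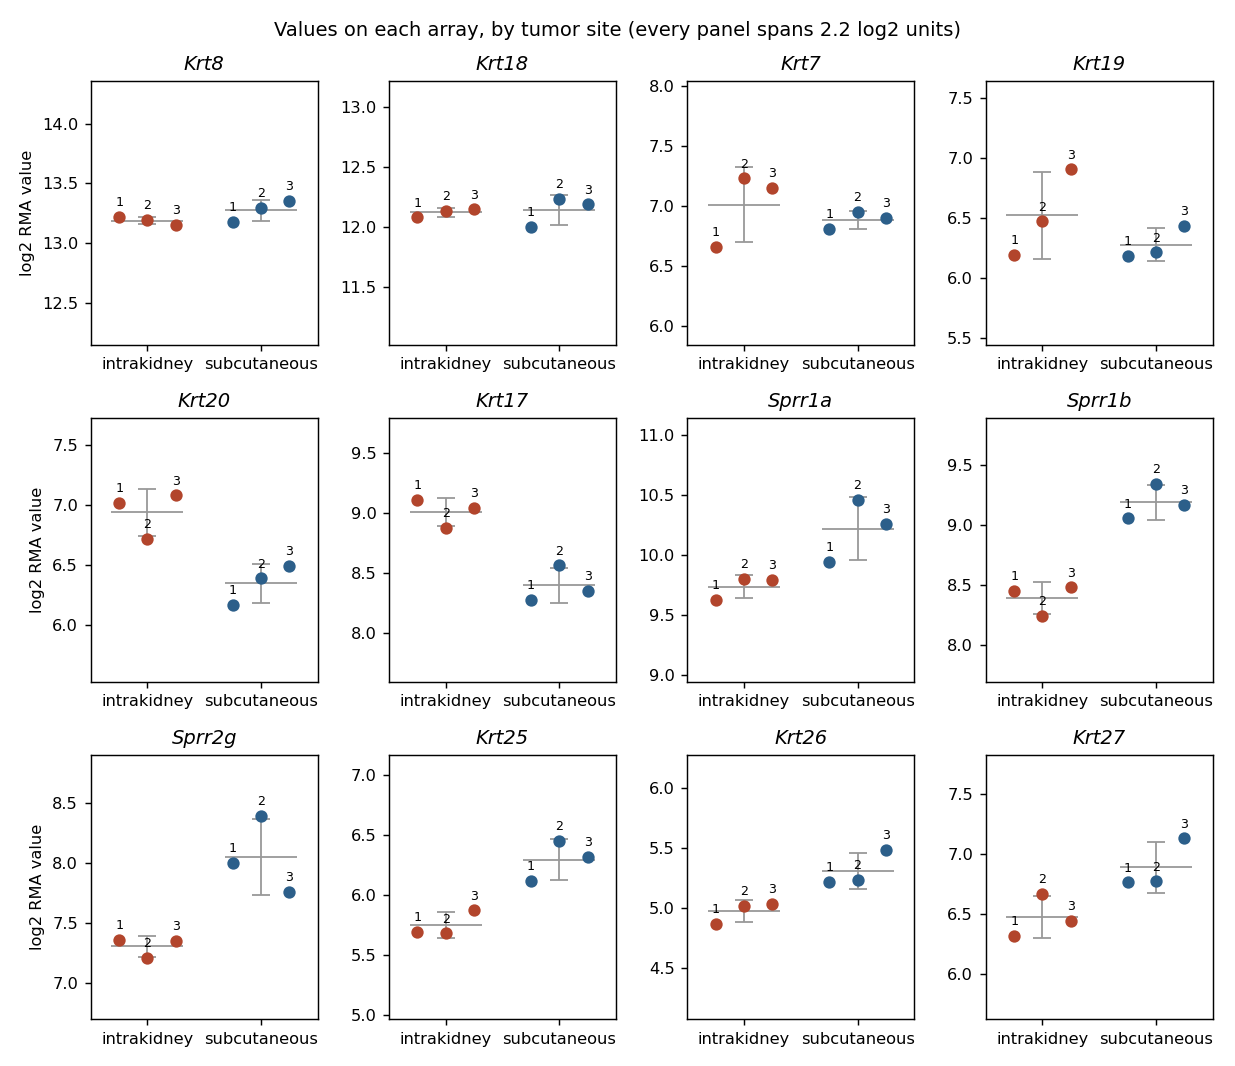
Log2 RMA value on each array for 12 members, with points numbered by tumor, intrakidney left of subcutaneous, and grey bars for mean ± SD (n = 3). All panels span the same range, so Krt8 and Krt18 lie flat while Sprr1b, Sprr2g, Krt17 and Krt20 separate.

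Keratins of the hair follicle's inner root sheath and companion layer were lower in intrakidney tumors for 4 of 9 members by groups that did not overlap, a state that 6.53% of all genes showed in that direction. These were the type I genes Krt25, Krt26 and Krt27 and the type II gene Krt71, all chains of the inner root sheath. With limma 0 of the 9 passed and 4 had an unadjusted p under 0.05. The median log2 fold change of the class was -0.24.

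Krt25 measured 5.69, 5.68 and 5.87 in intrakidney tumors, against 6.12, 6.45 and 6.32 in subcutaneous tumors, a log2 difference of -0.55 ± 0.11 (SE, adjusted p = 0.143 with limma). Krt27 measured 6.32, 6.67 and 6.44 in intrakidney tumors, against 6.76, 6.77 and 7.13 in subcutaneous tumors (-0.41 ± 0.13, adjusted p = 0.423 with limma). Their neighbour Krt26 measured 4.87, 5.02 and 5.04 in intrakidney tumors, against 5.22, 5.23 and 5.48 in subcutaneous tumors (-0.34 ± 0.096, adjusted p = 0.373 with limma). These 3 genes follow each other on chromosome 11, and the next genes on either side, Krt24 and Krt28, differed by 0.07 and 0.09 with overlapping groups.

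Krt71 on chromosome 15 measured 6.78, 6.83 and 6.81 in intrakidney tumors, against 6.94, 7.25 and 7.40 in subcutaneous tumors (-0.39 ± 0.12, adjusted p = 0.398 with limma). Its neighbours Krt74, Krt72 and Krt73 differed by 0.03, -0.24 and -0.18, with overlapping groups. All 9 genes of the class lay below the median value of all genes, and 8 of them below the 40th percentile. Genes of the follicle other than keratins gave 0 of 10 past the threshold with limma and 0 at an unadjusted p under 0.05, with list means of 6.51 to 6.70 in intrakidney and 6.57 to 6.76 in subcutaneous tumors. Over these 10 genes the median difference was -0.04 on the log2 scale. By p, the first genes of this list were Tchh, Gata3, Padi3 and Krtap3-2, of which only Padi3 lay higher in intrakidney tumors. The groups of each overlapped. Gata3 and Krtap3-2 differed by -0.23 and -0.22 (adjusted p = 0.654 and 0.883 with limma). The protein of Tchh is crosslinked to keratins in the inner root sheath. Tchh averaged 6.74 ± 0.20 in intrakidney and 7.07 ± 0.24 in subcutaneous tumors (adjusted p = 0.608 with limma). Padi3, an enzyme that modifies trichohyalin, averaged 7.66 ± 0.059 in intrakidney and 7.49 ± 0.13 in subcutaneous tumors (adjusted p = 0.684 with limma).

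The 12 hair shaft keratins ran from -0.19 (Krt32) to 0.11 (Krt39), all with overlapping groups. Krt87, the one above the median value of all genes, measured 7.29, 7.88 and 7.55 in intrakidney tumors, against 7.60, 7.76 and 7.74 in subcutaneous tumors (-0.13, adjusted p = 0.898 with limma). Shaft keratin genes are close in sequence, so probes of 1 may take up transcripts of another. Krt33a, outside the rule, differed by -0.41 with groups that did not overlap (adjusted p = 0.439 with limma), and its neighbour Krt33b by 0.06. The 5 keratins left unplaced (Krt23, Krt24, Krt42, Krt90 and Krt222) ran from -0.03 to 0.07.

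**Figure D4:**
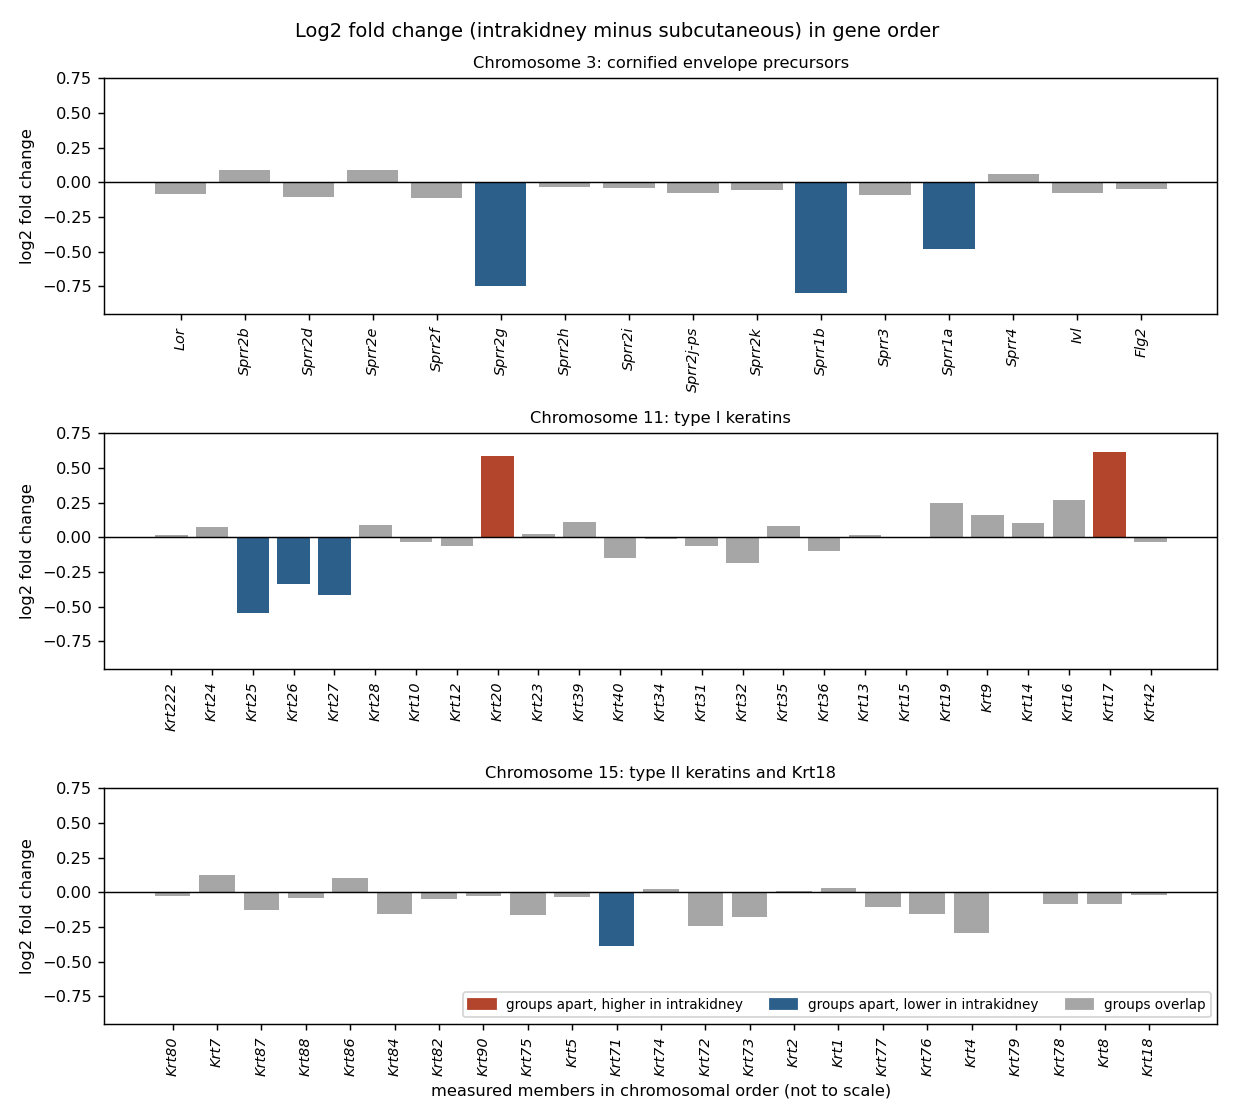
Log2 fold change (y axis, intrakidney minus subcutaneous) of the measured members in their order along chromosomes 3, 11 and 15, not drawn to scale. The members whose groups do not overlap are Sprr2g, Sprr1b and Sprr1a on chromosome 3, Krt25, Krt26, Krt27, Krt20 and Krt17 on chromosome 11 and Krt71 on chromosome 15.

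The 16 cornified envelope precursors held the only member past the threshold. Sprr1b (transcript cluster 10499891), which encodes a small proline-rich crosslinking protein, measured 8.45, 8.24 and 8.48 in intrakidney tumors, against 9.05, 9.34 and 9.17 in subcutaneous tumors. The highest intrakidney array lay well below the lowest subcutaneous array. Its log2 difference was -0.80 ± 0.10 (SE), with a 95% interval of -1.04 to -0.56 (limma, adjusted p = 0.0416), and 0.1% of all genes passed in that direction. The call was lost when any 1 of the 6 arrays was left out (adjusted p between 0.0812 and 0.186, differences between -0.87 and -0.72) and when every transcript cluster was tested (adjusted p = 0.165).

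Sprr1a, its closest relative, lay lower as well. It measured 9.62, 9.80 and 9.79 in intrakidney tumors, against 9.94, 10.46 and 10.26 in subcutaneous tumors. The groups did not overlap, though intrakidney tumor 2 and subcutaneous tumor 1 were near each other. The log2 difference was -0.48 ± 0.13 (SE, adjusted p = 0.354 with limma), with a range of -0.62 to -0.36 when single arrays were left out.

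Sprr2g measured 7.36, 7.21 and 7.35 in intrakidney tumors, against 8.0, 8.39 and 7.76 in subcutaneous tumors. Again every intrakidney array was the lower, and the subcutaneous arrays were the more spread (SD 0.32, against 0.087 in intrakidney tumors). The log2 difference of -0.75 ± 0.15 did not pass (adjusted p = 0.170 with limma). RefSeq lists Sprr2g as a transcribed pseudogene, and Sprr2 copies are near-identical, so the transcript behind this signal is uncertain.

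The other 13 precursors differed by -0.11 (Sprr2f) to 0.09 (Sprr2e), with overlapping groups and mean values from 4.5 to 6.49. They include the structural proteins of terminally cornified cells: Lor, the main envelope protein loricrin, at -0.08, Ivl, the scaffold involucrin, at -0.07, and Flg2, a filaggrin relative, at -0.05. Ivl measured 5.21 to 5.42 in intrakidney and 5.21 to 5.53 in subcutaneous tumors. Sprr3, of oesophagus, and Sprr4 differed by -0.09 and 0.06, although Sprr3 lies between Sprr1b and Sprr1a on chromosome 3. The lower signal in intrakidney tumors was thus measured for Sprr1a, Sprr1b and Sprr2g among 16 measured precursors. These were also the only 3 at or above the median value of all genes. The other 13 lay below the 40th percentile. RMA compresses differences of dim clusters, so a similar change in these 13 could have been missed. The median of the 16 was -0.07.

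The promoters of Sprr1b and Sprr1a are shown because both genes lay lower in every intrakidney tumor. They lie at chr3:92438730-92439029 and chr3:92485832-92486131 on the minus strand (RefSeq, GRCm38.p6), 5′ to 3′ on that strand, with matches to TGANTCA or TATAAA in capitals.

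Sprr1b: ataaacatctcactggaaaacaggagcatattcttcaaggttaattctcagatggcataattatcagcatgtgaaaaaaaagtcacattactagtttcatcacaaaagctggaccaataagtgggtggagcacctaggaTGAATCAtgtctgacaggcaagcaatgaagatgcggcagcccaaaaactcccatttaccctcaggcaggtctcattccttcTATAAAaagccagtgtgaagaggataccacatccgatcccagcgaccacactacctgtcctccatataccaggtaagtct

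Sprr1a: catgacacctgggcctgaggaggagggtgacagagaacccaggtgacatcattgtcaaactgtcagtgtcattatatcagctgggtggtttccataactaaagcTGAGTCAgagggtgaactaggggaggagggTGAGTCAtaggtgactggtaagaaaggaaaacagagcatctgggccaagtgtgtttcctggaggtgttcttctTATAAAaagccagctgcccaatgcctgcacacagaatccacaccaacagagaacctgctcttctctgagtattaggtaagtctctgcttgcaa

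Sprr1a held TGANTCA 2 times, both as TGAGTCA, starting 146 and 116 bases before the RefSeq start. Sprr1b held it 1 time, as TGAATCA, 111 bases before the start, with another middle base than in Sprr1a. The pattern leaves that base free, so a match to it does not show an AP-1 site. Binding of AP-1 factors was not tested. The TATA letters began 43 bases before the start in Sprr1a and 30 before it in Sprr1b. Of the 14 precursors with a promoter in the table, 12 held TGANTCA (85.7%, against 7.81% of all promoters) and 12 held TATAAA (85.7%, against 13.6%). Precursors were counted per gene, by a match in any of its promoters, and the background per promoter. Sprr2 copies are near-identical, so their promoters are not independent. TGANTCA letters were missing from these windows only in Sprr3 and Sprr4. Precursors whose groups overlapped held the letters too, among them Lor, Ivl and Flg2, as did Sprr1a and Sprr1b. Sprr2g has no promoter in the table.

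**Figure D5:**
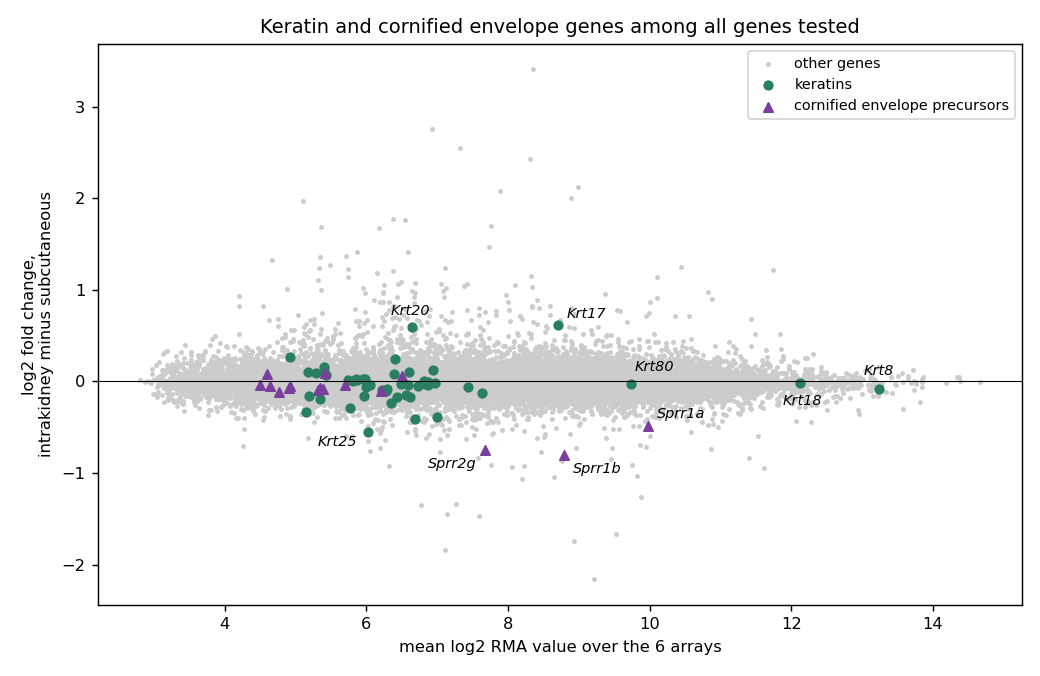
Log2 fold change (y axis) against the mean log2 RMA value over the 6 arrays (x axis) for all 19938 genes in grey, keratins as circles and cornified envelope precursors as triangles. Most members lie near 0 at low values, and Sprr1b, Sprr2g, Sprr1a, Krt17, Krt20 and Krt25 are the members farthest from 0 among those labelled.

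Enzymes that build and shed the envelope were measured beside its precursors. Of 25 measured genes of cornification enzymes and proteases 0 passed with limma, and 2 had an unadjusted p under 0.05, both higher. Tgm1, the keratinocyte transglutaminase that crosslinks the precursors, averaged 9.32 ± 0.11 in intrakidney and 8.80 ± 0.073 in subcutaneous tumors (mean ± SD, n = 3 each), with groups that did not overlap (log2 difference 0.52 ± 0.083, adjusted p = 0.0840 with limma). Tgm2, the tissue transglutaminase of many cell types, averaged 11.46 ± 0.018 in intrakidney and 11.24 ± 0.12 in subcutaneous tumors (0.22, adjusted p = 0.492 with limma). The signs of both transglutaminases were thus opposite to that of Sprr1b.

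Other genes of the epidermal differentiation complex, the chromosome 3 region that holds the precursors, gave 0 of 44 past the threshold and 1 at an unadjusted p under 0.05. That 1 was S100a8, a calcium-binding protein of neutrophils as well as of stressed keratinocytes, at 0.77 (adjusted p = 0.266 with limma). Among 20 desmosome and plakin genes, which anchor keratin filaments to cell junctions, 0 passed and 3 had an unadjusted p under 0.05. The plakophilins Pkp4 and Pkp2 differed by 0.25 and -0.23, and periplakin (Ppl), which also lies under the envelope, by 0.23 (adjusted p = 0.361, 0.549 and 0.583 with limma).

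Of 14 general epithelial genes 0 passed, with 2 higher and 2 lower at an unadjusted p under 0.05. Elf3, an epithelial transcription factor, differed by 0.39, and the cell adhesion gene Cdh1 (E-cadherin) by -0.52 (adjusted p = 0.0967 and 0.209 with limma). Of 17 measured regulators of epidermal differentiation, 0 passed and 0 had an unadjusted p under 0.05. Among 15 other intermediate filament genes 0 passed and 3 had an unadjusted p under 0.05, of which Nes (nestin), a filament protein of progenitor cells and young vessels, averaged 9.60 ± 0.014 in intrakidney and 9.28 ± 0.12 in subcutaneous tumors (adjusted p = 0.278 with limma).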

How the data were processed

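Total RNA of 6 whole tumors was measured on Affymetrix arrays. The deposited values are log2 expression values that the authors made by RMA with affy, as the submitters' processing notes list. No version, setting or build was named in those sources. That the scale is log2 follows from the range of the values. RMA background correction and summarisation compress differences of dim clusters. Of 35512 transcript clusters, 21789 were paired with exactly 1 gene symbol by the platform annotation, 1621 with several and 12102 were not named here. Per gene the cluster with the highest mean was kept, which left 19938 genes. All 64 members were matched to RefSeq (GRCm38.p6) by Entrez identifier with the same symbol. RefSeq served for names, gene order and promoter sequences.

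Intrakidney and subcutaneous tumors were set against each other by a two-sided test in limma 3.58.1 under R 4.3.3 (lmFit and eBayes, constant prior). P-values were adjusted by Benjamini-Hochberg over all genes, with 0.05 as the threshold. The fit was tested on simulated data. Each tumor came from its own mouse, and the labels named no batch. Members, classes, marker lists and settings were chosen with earlier results of these data known. By rule, values on every array are given for the 5 simple keratins and for 10 further members with a mean of at least 7.48 (the median over all genes), a log2 difference of at least 0.5, or separate groups with an unadjusted p under 0.05. Krt16 was added after its values were seen, as the relative of Krt17. Of each marker list up to 4 genes were eligible, in order of p. Other settings tried were centring on medians, quantile normalization, dropping dim genes (mean under the 40th percentile), an offset of 16, averaging clusters, testing every cluster, an intensity trend, array weights, a replicate block, leaving out arrays and an adjusted p of 0.01.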

Additional observations from a re-analysis of the deposited data

How the results depend on the processing

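Sprr1b kept its negative sign under all 16 alternative fits and passed the threshold of 0.05 under 7 of them, with an adjusted p from 0.00481 to 0.186 with limma. Averaging clusters was 1 of these 7 and left its values unchanged, as Sprr1b has a single cluster. The stricter threshold of 0.01 is not counted among the 16, and Sprr1b did not pass it. The number of members past the threshold was 1 as reported. It was 2 (Sprr1b and Krt17) without dim genes and with the intensity trend, and 6 with array weights, which added Krt17, Krt20, Krt25, Sprr1a and Sprr2g and gave most weight to intrakidney tumor 3 and subcutaneous tumor 2 (2.57 and 3.55). With limma it was 0 when every cluster was tested, at an adjusted p of 0.01, and with the replicate block (9 members at an unadjusted p under 0.05 each time). It was also 0 without any single array (9 to 14 members at an unadjusted p under 0.05) and 0 without both intrakidney tumors 2 and 3, a setting chosen after seeing the data, in which the lone intrakidney array is assumed to vary like the others (13 members). Over all genes the count was 46, against 101 without dim genes, 74 with an offset, 138 with the trend, 624 with array weights, 5 at an adjusted p of 0.01, 30 without both intrakidney tumors 2 and 3, and between 2 and 33 without single arrays. It was 0 with every cluster tested (2206 clusters at an unadjusted p under 0.05) and 0 with the replicate block (1825 genes). Same-numbered arrays correlated by 0.37, -0.16 and 0.10 in their deviations from the group means, so the numbers were not taken as pairs. The block left the log2 differences of the members as they were (-0.80 for Sprr1b) and changed their SEs (0.115 for Sprr1b, against 0.103 in the main fit). The cause of the changes in these counts was not tested. Quantile normalization and centring moved the median of all genes by about 0.01 and left the member count at 1.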

Other observations

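The Sprr2a genes share clusters and so belong to no comparison of single genes. The cluster paired with Sprr2a1, Sprr2a2, Sprr2a3 and Sprr2b measured 7.23, 7.56 and 7.47 in intrakidney tumors, against 7.37, 7.64 and 7.64 in subcutaneous tumors. A pair of further clusters, both assigned to Sprr2a1 and Sprr2a3, had identical values, with 6.79, 7.24 and 7.08 in intrakidney tumors, against 7.0, 7.07 and 7.21 in subcutaneous tumors. These groups overlapped (log2 differences -0.13 and -0.06, adjusted p = 0.953 and 0.985 with limma over every cluster), unlike those of Sprr2g.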
